A study of Mus musculus with 12 samples.

Results

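The genes described here encode the receptors for glutamate and GABA, and they were taken by symbol: every gene named Gria, Grid, Grik or Grin with its number, every numbered Grm gene, every Gabr subunit, and Gabbr1 and Gabbr2. The rule found 47 of the 25887 genes in the tables, of which 4 encode AMPA, 5 kainate, 2 delta, 7 NMDA and 8 metabotropic glutamate receptor subunits, 19 encode GABA-A and 2 encode GABA-B subunits. RNA came from FACS-sorted dermal papilla cells of mice. These mesenchymal cells sit in the bulb of the hair follicle and signal to its epithelium. WT mice were compared with Smo* mice, in which a gain-of-function form of Smo is specific to the dermal papilla. Smo is a membrane protein that carries Hedgehog signals across the plasma membrane. The promoter or Cre that gives this specificity, the strain and the sorting markers are not given in the sources used here. At postnatal day 20 (P20) there were 3 WT and 3 Smo* libraries, all female and in telogen, when the hair follicle rests. At postnatal day 28 (P28) there were 3 WT libraries labelled male and Anagen VI, the full growth stage, and 3 Smo* libraries labelled male and anagen (I-III), its early stages. Age, sex and stage therefore differ together between P20 and P28 and cannot be told apart, nor can genotype and stage at P28. Since the labels do not state that each library is a different animal, the spread that p-values rest on may be technical.

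Depth was 36323058 to 48926831 reads on genes per library. P28 Smo* replicate 3 stood apart, with reads on 15453 genes where the other libraries had 17337 to 17926, and with Spearman correlations of 0.962 and 0.959 with its replicates where all other replicate pairs reached at least 0.976. All 10 dermal papilla markers examined, among them Corin, Alpl and Vcan, were detected in all 4 groups. Their summed level was 45838 to 58170 normalized counts in P20 WT, 65713 to 76452 in P20 Smo*, 261970 to 327046 in P28 WT, 165901 and 244242 in P28 Smo* replicates 1 and 2, and 44601 in replicate 3. Most of the sum in P28 WT came from Vcan and Corin. Of these markers, Hhip had 1039 to 1528 in P20 WT and 13606 to 14815 in P20 Smo*. Hhip and Sox18 were called higher in Smo* at P20 (log2 3.53 and 3.14, limma adjusted p = 9.3e-05 and 0.031). In P28 Smo* replicate 3 the summed level of 6 adipocyte markers was 5556, against 644 to 1055 in its replicates. The summed level of 10 neuron markers, most of it from Gap43 and Stmn2, spanned 568 to 856 over all 12 libraries, and Snap25, Elavl4 and Nefl stayed under 10 in each. Syp and Syt1 of this list moved with the groups as many receptor genes did. Syp had 268, 308 and 313 in P28 WT and 88.2 to 144 in all other libraries, and Syt1 had 17.1, 42.8 and 48.8 against 4.13 at most. Both rose between the ages in WT (log2 1.38 and 3.38, limma adjusted p = 6.0e-04 and 0.018) and were lower in Smo* at P28 (-1.27 and -4.08, limma adjusted p = 0.0088 and 0.030). Of 8 Schwann cell markers, Sox10 and Foxd3 stayed under 10 in every library. Cdh19 had 209, 283 and 401 in P28 WT and 13.6 to 50.1 in all other libraries, and was called in the same comparisons (log2 3.15 and -3.37, limma adjusted p = 8.0e-04 and 0.0029). Because these are bulk samples, fewer cells of a type and less RNA per cell cannot be told apart.

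Glutamate is the main excitatory transmitter of the brain and GABA its main inhibitory one, and their receptors are best known from synapses. AMPA, kainate and NMDA receptors are cation channels built from several subunits, the GABA-A receptor is a chloride channel, and the metabotropic glutamate and GABA-B receptors act through G proteins. Delta receptors share the ionotropic fold, but act at synapses mainly as binding partners of secreted cerebellins. Dermal papilla cells are not neurons, so what is described here is the level of the receptor transcripts and not current or signalling.

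The dermal papilla cells held transcripts of a part of the receptor genes. A mean of at least 50 normalized counts in some group was reached by 27 of the 47 genes, and 27 genes had a read in every library. Another 4 reached 10 to 50, among them Gabrr2, Gria1 and Grm3. The other 16 genes stayed under 10 in every group, with a highest group mean of 4.93. Among them were Gabra5, Gabra6, Gabrd, Gabrg1, Gabrp, Gabrq, Gabrr1, Gabrr3, Gria2, Grik1, Grin2c, Grm2, Grm5 and Grm6. Gria2 is the subunit that makes AMPA channels impermeable to calcium. Gabra6 and Grm6 had 0 reads in all 12 libraries, which allows up to 3 of the 513491194 reads. Limits and intervals from read counts reflect counting error alone.

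Levels of different genes were compared per kilobase of exon. In P20 WT the highest were Grik5 at 171 normalized counts per kilobase (135 to 207 over the 3 libraries), Gria4 at 135 (126 to 152) and Gabbr1 at 108 (85.5 to 143), whose ranges overlap from each to the next. In P28 WT the order was led by Grid1 at 341 (332 to 352), ahead of Grik5 at 210 (191 to 220) and Grin3a at 184 (150 to 221). Here the range of Grid1 lay above all others, and those of Grik5 and Grin3a overlapped. In P28 Smo* the leading genes were Grik5 at 180, Gria3 at 129 and Gria4 at 105. Summed over all 47 genes, the level per kilobase was 861 ± 118 in P20 WT, 794 ± 61.1 in P20 Smo*, 1465 ± 96.3 in P28 WT and 938 ± 168 in P28 Smo* (SD, n = 3), so that P28 WT was the only group whose 3 libraries all lay above those of the other groups (1355 to 1535, against 1094 at most). Grid1 alone made up 23.3% of that sum in P28 WT.

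**Figure D1:**
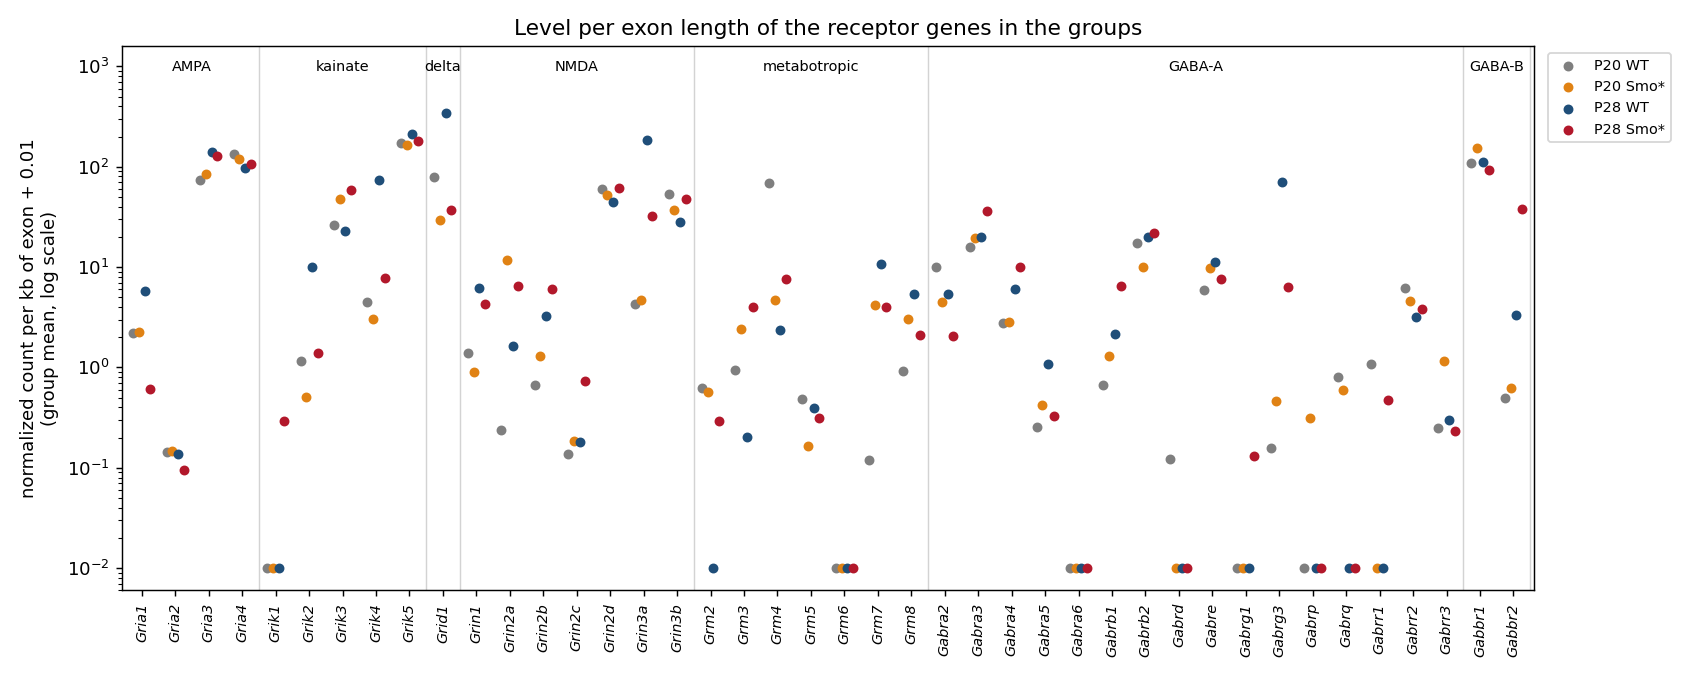
Mean normalized count per kilobase of exon (log scale, 0.01 added) for the receptor genes named here, with 1 point per group and the genes ordered by family. The group means of Grik5, Gria4 and Gabbr1 lie close together, those of Gria3 are higher at P28 than at P20, and the P28 WT points of Grid1, Grin3a, Gabrg3 and Grik4 sit far above those of the other groups.

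Among the 27 genes that reached 50, the group with the highest mean was P28 WT for 12, P28 Smo* for 9, P20 WT for 4 and P20 Smo* for 2. Genes were called with limma at an adjusted p under 0.05 over all genes tested, on log2(normalized count + 1), where the mean over the libraries in the fit was at least 10. Between P28 and P20 in WT, 13 of the 28 receptor genes tested rose and 2 fell, where 25.4% of all genes tested were called (13.5% higher and 11.9% lower). The median log2 fold change of the 28 was 1.40, and that of all genes was -0.01. Of these 28, 7 were tested only because 1 of the groups was high, and 5 of them were among the genes that rose. With both groups at 10 or more there were 21 genes, of which 8 rose and 2 fell. At P28, 2 of 29 rose in Smo* against WT and 5 fell, where 8.9% of all genes were called (4.05% higher, 4.85% lower). At P20, 1 of 27 rose and 1 fell, against 0.696% of all genes (0.485% higher, 0.212% lower). The gene that rose, Grin2a, was among 8 tested with 1 group under 10, and of the 19 with both groups at 10 or more, limma called 0 higher and 1 lower. Between P28 and P20 in Smo*, 3 of 28 rose, against 3.46% of all genes (1.98% higher, 1.47% lower). These 3, Gabbr2, Gabrg3 and Grin1, were among 5 tested with 1 group under 10, and limma called 0 of the other 23. None fell with limma or edgeR and 1 fell with DESeq2 (2 genes were lower at an unadjusted p under 0.05 with limma). On the recovered reads, DESeq2 called 5 of 27 at P20 (3.28% of all genes), 10 of 29 at P28 (15.6%), 16 of 28 between the ages in WT (29.5%) and 11 of 28 in Smo* (10.9%). The authors' deposited table called 4 receptor genes at P20 (2.13% of all genes) and 13 at P28 (16.8%). The comparisons between ages in WT and between genotypes at P28 share the 3 P28 WT libraries, so their values stand side by side and are not independent. Of the 10 dermal papilla markers, 6 rose and 0 fell between P20 and P28 in WT. In Smo* against WT, 2 rose and 0 fell at P20, and 1 rose and 3 fell at P28. Of the neuron markers tested, 2 of 5 rose in WT and 2 of 4 fell in Smo* at P28. Of 6 Schwann cell markers tested, 2 rose in WT and 1 fell in Smo* at P28. Of 7 endothelial cell markers, limma called 2 higher in Smo* at P28 and 0 lower. These were Cdh5 and Pecam1 (log2 4.37 and 1.53, limma adjusted p = 0.0013 and 0.015). There it also called 1 of 7 dermal fibroblast markers higher, and 1 of 7 pericyte and smooth muscle markers lower. Between the ages in WT, limma called 3 of the 7 dermal fibroblast markers lower and 0 higher. These were Cd34, Dlk1 and Lum (log2 -0.62, -1.74 and -0.67). From the pericyte list, Acta2 and Tagln were called higher in that comparison, and Abcc9, Cspg4 and Kcnj8 lower. The keratinocyte markers Krt17 and Krt79 and the adipocyte marker Pparg were called higher as well. The part of all these markers, or of the RNA they stand for, in the receptor gene results was not tested.

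**Figure D2:**
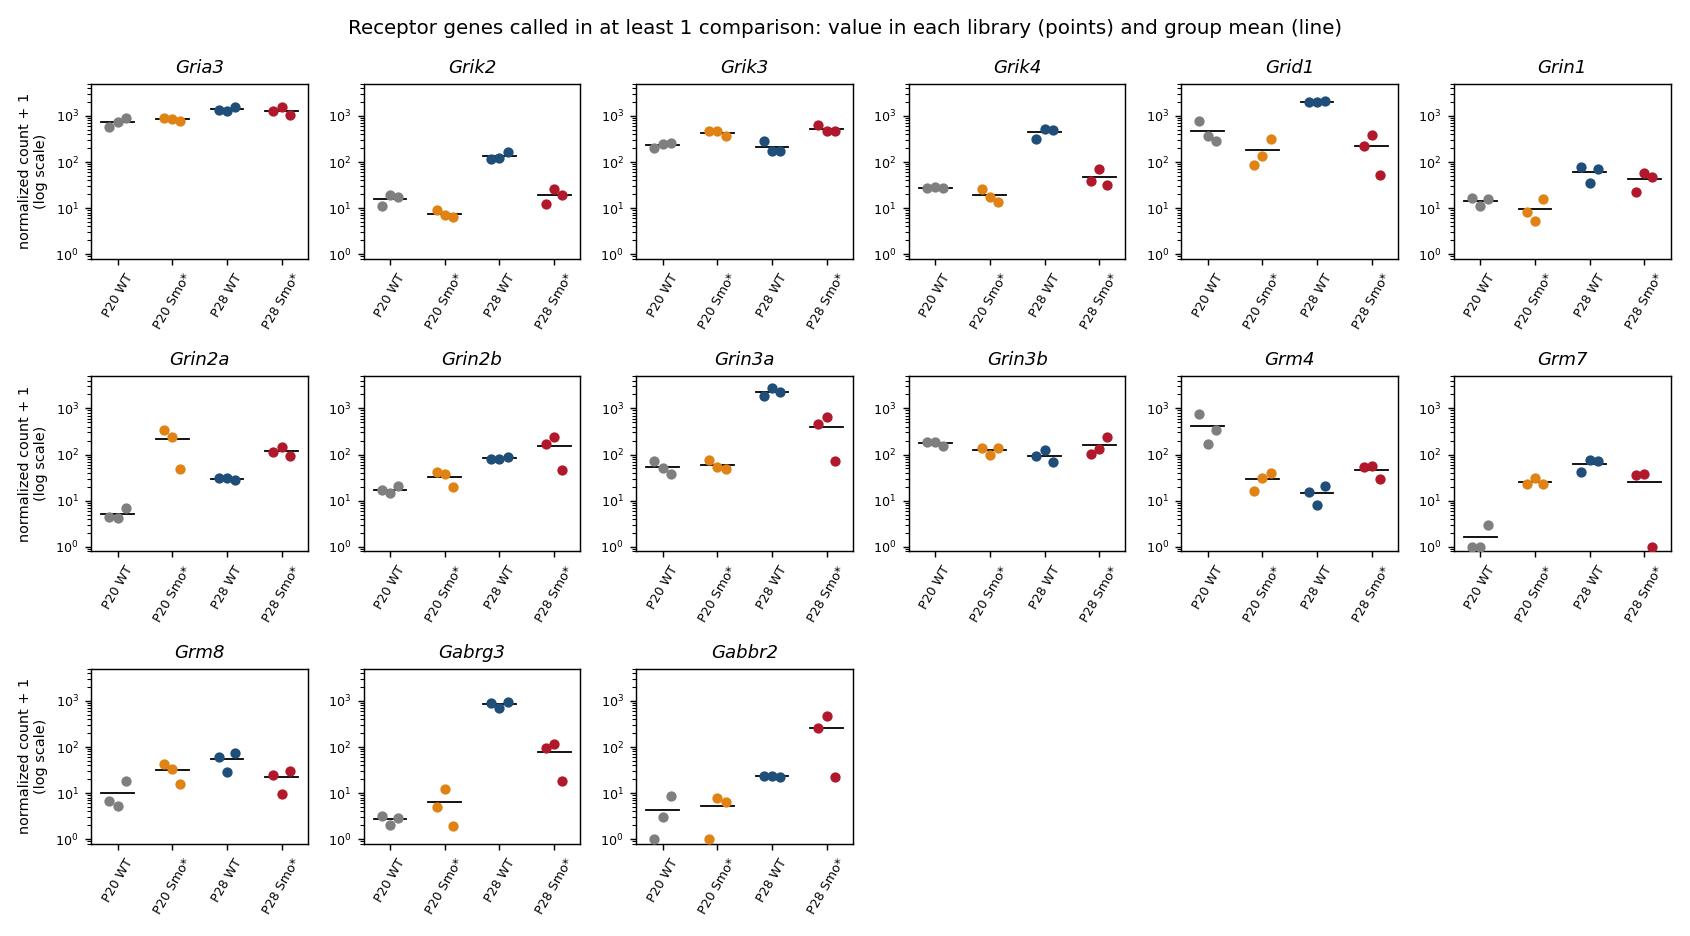
Normalized count plus 1 (log scale) in each library for 15 receptor genes called in at least 1 comparison, with points for libraries and a line for the group mean. Gabrg3, Grin3a, Grik4, Grik2 and Grid1 stand highest in the 3 P28 WT libraries, Grm4 in the 3 P20 WT libraries, and P28 Smo* replicate 3 (the right-hand red point) is often the lowest of its group.

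Of the AMPA receptor genes, which encode the fast channels, Gria3 and Gria4 were abundant in every library and Gria2 was near 0. Gria3 stood at 567, 727 and 879 normalized counts in P20 WT, 881, 858 and 790 in P20 Smo*, 1314, 1276 and 1555 in P28 WT and 1254, 1523 and 1044 in P28 Smo*. All P28 libraries were thus above all P20 libraries. In WT the rise was 0.95 on the log2 scale (SE 0.17, limma adjusted p = 0.0020). In Smo* the difference was 0.58 (SE 0.17, limma adjusted p = 0.080). Gria4 spanned 482 to 961 over the 12 libraries and was called in no comparison. Gria1 had 30.7, 16.6 and 56.2 in P28 WT and 8.82, 0.948 and 1.07 in P28 Smo*, which did not overlap. Its difference of -3.22 (SE 0.92) was not called with limma (adjusted p = 0.069) and was called with DESeq2 (adjusted p = 0.010). Gria1 had a mean of 34.5 in P28 WT and 3.61 in P28 Smo*. It passed the filter on low values only through the group where it was high, and was named after its values were seen.

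The kainate receptor genes went in opposite directions. Grik2 and Grik4 were high in P28 WT alone, Grik3 was higher in Smo* at P28, and Grik5 hardly varied. Grik2, a subunit that forms channels by itself (chromosome 10, 49094833 to 49788766 in GRCm38, minus strand), stood at 10.2, 18.7 and 16.4 in P20 WT, 8.26, 6.10 and 5.48 in P20 Smo*, 114, 122 and 161 in P28 WT and 11, 25.6 and 18.2 in P28 Smo*. No library of another group came near those of P28 WT. It rose 8.77-fold in WT between P20 and P28 (log2 3.07, SE 0.43, limma adjusted p = 3.8e-04) and at P28 was 7.24-fold lower in Smo* (log2 -2.85, SE 0.40, limma adjusted p = 0.0053). Grik4, which needs another subunit to form a channel (chromosome 9, 42518135 to 42944493, minus strand), had 26.0, 28.1 and 26.0 in P20 WT, 24.8, 16.6 and 12.8 in P20 Smo*, 307, 517 and 500 in P28 WT and 38.6, 68.3 and 31.0 in P28 Smo*. Its P28 WT libraries also lay far above all others. It rose 16.5-fold in WT (log2 3.96, SE 0.36, limma adjusted p = 1.9e-05) and was 9.60-fold lower in P28 Smo* than in P28 WT (log2 -3.28, SE 0.35, limma adjusted p = 0.0015).

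Grik3 (chromosome 4, 125490700 to 125714173, plus strand) showed the other order. It had 203, 247 and 260 in P20 WT, 460, 476 and 359 in P20 Smo*, 282, 169 and 170 in P28 WT and 639, 463 and 480 in P28 Smo*. The Smo* libraries were above the WT libraries of the same age without overlap at both ages. The difference was called at P28, where it was 2.55-fold (log2 1.37, SE 0.25, limma adjusted p = 0.015). Without P28 WT replicate 2 or 3 the adjusted p became 0.066 and 0.064. At P20 the ratio was 1.82 (log2 0.86, SE 0.18), which limma did not call (adjusted p = 0.088) and DESeq2 did (adjusted p = 0.0026). Grik5, like Grik4 a high-affinity subunit, spanned 699 to 1138 in all 12 libraries and was called in no comparison.

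The sequences before the annotated starts of Grik2, Grik4, Grik3 and Gabrg3, a GABA-A subunit gene described further on, are shown because these genes moved in opposite directions at P28. They are the called genes of that comparison that matched a RefSeq promoter entry (GRCm38.p6), and they were chosen after their values were seen. Of the 47 genes, 32 matched. Each run ends at the base before the first annotated exon of its gene or at the RefSeq start, whichever comes first, and reads 5′ to 3′ on the strand of the gene. Capitals mark the GC box GGGCGG and its complement CCGCCC.
Grik2: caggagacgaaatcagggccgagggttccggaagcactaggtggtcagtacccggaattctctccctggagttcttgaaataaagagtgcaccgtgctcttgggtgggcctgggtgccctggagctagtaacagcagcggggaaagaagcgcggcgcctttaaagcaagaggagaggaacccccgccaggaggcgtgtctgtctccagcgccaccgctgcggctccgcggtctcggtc
Grik4: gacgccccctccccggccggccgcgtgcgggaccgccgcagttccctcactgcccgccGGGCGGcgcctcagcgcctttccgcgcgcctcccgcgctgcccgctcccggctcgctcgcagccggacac
Grik3: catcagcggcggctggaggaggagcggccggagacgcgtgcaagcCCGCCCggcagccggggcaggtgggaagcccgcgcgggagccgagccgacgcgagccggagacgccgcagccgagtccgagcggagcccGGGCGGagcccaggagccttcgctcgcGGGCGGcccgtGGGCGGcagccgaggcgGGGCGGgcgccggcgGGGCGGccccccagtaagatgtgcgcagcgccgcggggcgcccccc
Gabrg3: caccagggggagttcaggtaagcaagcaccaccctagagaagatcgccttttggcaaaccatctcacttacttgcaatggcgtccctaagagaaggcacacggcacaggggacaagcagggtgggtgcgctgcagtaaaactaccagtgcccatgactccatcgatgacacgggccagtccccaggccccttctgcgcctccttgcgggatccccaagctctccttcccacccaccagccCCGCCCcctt

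The windows lie at chr10:49788767-49789004, chr9:42944494-42944621, chr4:125490446-125490695 and chr7:57387216-57387465, on the minus, minus, plus and minus strands. The Grik3 window held 6 GC boxes in 250 bases, which 0.886% of the 32851 promoter windows of this length match or exceed, and 42 CG dinucleotides, which 0.865% match or exceed. The Grik4 window held 1 GC box in 128 bases (13.8% of windows of this length hold any) and 23 CG dinucleotides, which 0.633% match or exceed. Gabrg3 held 1 GC box in 250 bases (32.7% hold any) and 9 CG dinucleotides (matched or exceeded by 40.3%), and Grik2 held 0 GC boxes in 238 bases (31.0% hold any) and 17 CG dinucleotides (21.3%). A high count of CG dinucleotides was thus held by Grik4, which fell in Smo* at P28, as well as by Grik3, which rose. The GC box was 1 of 12 motifs searched on both strands. The other 11, each with 0 matches in all 4 windows, were GACCACCCA and GACCNCCCA (the core of the Gli site, to which the factors of the Hedgehog pathway bind; 0.225% and 0.868% of all 250-base windows hold them), TTCAGCACC and CAGCACC (the left side of the REST site; 0.301% and 5.73%), TGACGTCA and TGACG (1.55% and 17.8%), CTTTGAA and CTTTGAT (the core of the Lef1 site; 4.46% and 3.21%), CTTTGTT (5.03%), TATAAA (12.4%) and CCAAT (33.8%). These are matches of letters in these windows and say nothing of what binds.

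The delta receptor gene Grid1 was the highest of all receptor genes per kilobase in P28 WT and fell in P28 Smo*. Grid1 (chromosome 14, 34820108 to 35583379, plus strand) had 773, 359 and 286 in P20 WT, 84.7, 136 and 312 in P20 Smo*, 1979, 2023 and 2100 in P28 WT and 220, 393 and 51.3 in P28 Smo*. The 3 P28 WT libraries lay close together, whereas the libraries of each other group differed widely. It rose 4.30-fold in WT between the ages (log2 2.24, SE 0.64, limma adjusted p = 0.023) and was 9.18-fold lower in P28 Smo* (log2 -3.62, SE 0.62, limma adjusted p = 0.012). The rise was called in 1 of 6 fits that each left out 1 library. The fall was -2.78 without P28 Smo* replicate 3 (limma adjusted p = 2.9e-04), and it lost its call without P28 WT replicate 2 (0.059) or 3 (0.052).

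Among the NMDA receptor genes, Grin3a rose between the ages in WT, Grin2a was higher in Smo* at both ages, and Grin2d varied little. Grin3a, a subunit that lowers the calcium flow of the channel (chromosome 4, 49661611 to 49845744, minus strand), had 70.1, 51.0 and 37.6 in P20 WT, 73.3, 53.1 and 46.5 in P20 Smo*, 1844, 2712 and 2237 in P28 WT and 467, 640 and 70.6 in P28 Smo*. In P28 Smo* it lay between the P20 and the P28 WT libraries, apart from replicate 3, which was at the P20 level. The rise in WT was 42.8-fold (log2 5.42, SE 0.61, limma adjusted p = 9.3e-05). At P28 it was 5.77-fold lower in Smo* (log2 -3.01, SE 0.71, limma adjusted p = 0.038). That fall was -2.03 without P28 Smo* replicate 3 (limma adjusted p = 6.8e-04), and lost its call without any 1 of the 3 P28 WT libraries (0.084, 0.14 and 0.12) or without P28 Smo* replicate 1.

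Grin2a, a glutamate-binding NMDA subunit (chromosome 16, 9567898 to 9995560, minus strand), had 3.39, 3.12 and 5.78 in P20 WT, 346, 242 and 47.5 in P20 Smo*, 29.9, 29.7 and 27.6 in P28 WT and 115, 142 and 94.1 in P28 Smo*. The Smo* libraries were above those of WT at both ages, and the P20 Smo* libraries differed widely among themselves. At P20 it was 51.7-fold higher in Smo* (log2 5.01, SE 0.70, limma adjusted p = 0.027), and at P28 4.03-fold higher (log2 1.95, SE 0.31, limma adjusted p = 0.0089). It also rose 7.09-fold between the ages in WT (log2 2.60, SE 0.59, limma adjusted p = 0.0069). The P28 call was made in all 6 fits that each left out 1 library. The P20 call was made in 2 of 6, with an adjusted p of 0.0032 to 0.13. In P20 Smo* replicate 3, the lowest of the 3, the summed level of the adipocyte markers was 2723, against 1486 and 673 in its replicates. The part of other cells in this value was not tested.

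The obligatory subunit gene Grin1, without which no NMDA channel forms, was low, with 4.36 to 15.8 at P20, 77.7, 34.4 and 69.1 in P28 WT and 20.9, 57.9 and 46.0 in P28 Smo*. Each P28 library was above each P20 library. It rose 4.45-fold in WT (log2 2.01, SE 0.54, limma adjusted p = 0.016) and 4.76-fold in Smo* (log2 2.15, SE 0.54, limma adjusted p = 0.049). The first was called in 3 and the second in 0 of 6 fits that each left out 1 library. Exons of the antisense gene Grin1os cover 13.5% of those of Grin1, and no source used here says if reads were counted by strand, so the reads of both may be joined. Grin2b had 15.8, 13.5 and 19.3 in P20 WT, 40.3, 37.5 and 19.2 in P20 Smo*, 78.5, 77.2 and 87.5 in P28 WT and 165, 234 and 46.0 in P28 Smo*. It rose 5.0-fold in WT (log2 2.26, SE 0.51, limma adjusted p = 0.0071). Grin2d spanned 284 to 459 over the 12 libraries and was called in no comparison with limma. Grin3b fell in WT from 185, 188 and 152 to 89.6, 122 and 68.1 (log2 -0.94, SE 0.31, limma adjusted p = 0.043), which was not called with edgeR and was called in 1 of 6 fits that each left out 1 library. Of the exon bases of Grin3b, 32.1% are shared with the opposite-strand gene Tmem259, whose group means were 1910 to 2237, so its value is uncertain.

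The called metabotropic glutamate receptor genes were of the group that lowers cyclic AMP at presynaptic endings. Grm4 was highest in P20 WT. It (chromosome 17, 27422387 to 27521403, minus strand) had 737, 171 and 332 in P20 WT, 15.5, 30.5 and 38.3 in P20 Smo*, 14.5, 7.13 and 20.3 in P28 WT and 52.9, 56.0 and 27.8 in P28 Smo*. Every P20 WT library was above every other library, although these 3 differed widely among themselves. It was 14.7-fold lower in Smo* at P20 (log2 -3.67, SE 0.53, limma adjusted p = 0.029), and fell 29.6-fold between the ages in WT (log2 -4.65, SE 0.56, limma adjusted p = 1.4e-04). The fall in WT was called in all 6 fits that each left out 1 library. The P20 difference was called in 1 of 6 (adjusted p 0.030 to 0.11), with log2 fold changes of -4.18 to -3.13. At P28 its difference of 1.68 (SE 0.56) went the other way and was not called with limma (adjusted p = 0.11) or edgeR. DESeq2 called that difference, as did the authors' deposited table (authors' adjusted p = 0.028).

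Grm7 (chromosome 6, 110645581 to 111567230, plus strand) was nearly without reads in P20 WT. It had 0, 0 and 1.93 there, 21.7, 30.5 and 21.9 in P20 Smo*, 41.8, 73.6 and 71.8 in P28 WT and 35.3, 36.0 and 0 in P28 Smo*. P28 Smo* replicate 3 was back at 0. Because P20 WT held 2 reads in all, the ratios are wide, with intervals of counting error alone. They were 87.9 for P28 against P20 in WT (95% exact interval 24.0 to 731) and 35.9 for Smo* against WT at P20 (9.62 to 302). The first was called (log2 5.43, SE 1.13, limma adjusted p = 0.0046), also in all 6 fits that each left out 1 library. The second was not called with limma (log2 4.15, SE 0.72, adjusted p = 0.051) and was called with edgeR (adjusted p = 0.048) and DESeq2 (0.0023). Grm8 rose in WT from 5.65, 4.16 and 17.3 to 60.6, 27.3 and 72.7 (log2 2.56, SE 0.66, limma adjusted p = 0.013), called in 4 of 6 such fits.

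Of the 19 GABA-A subunit genes, 8 reached a group mean of 50, and Gabrg3 gave the largest ratio of means between groups among the called receptor genes. Gabrg3, a gamma subunit (chromosome 7, 56716465 to 57387188, minus strand), had 2.26, 1.04 and 1.93 in P20 WT, 4.13, 11.3 and 0.913 in P20 Smo*, 879, 715 and 936 in P28 WT and 95.9, 115 and 17.1 in P28 Smo*. P28 WT lay above P28 Smo*, and P28 Smo* above all P20 libraries, with no overlap. In reads, P20 WT held 5 in all and P28 WT 2648, a ratio of 493 (95% exact interval 211 to 1518). The rise in WT was 8.28 on the log2 scale (SE 0.74, limma adjusted p = 1.6e-05), and that in Smo* was 3.57 (SE 0.74, limma adjusted p = 0.027), or 13.8-fold in reads (8.53 to 23.7). Both read intervals hold counting error alone and leave out the spread between libraries. At P28 Gabrg3 was 11.1-fold lower in Smo* (log2 -3.83, SE 0.63, limma adjusted p = 0.010). The fall at P28 and the rise in WT were called in all 6 fits that each left out 1 library, and the rise in Smo* in 2 of 6. Without P28 Smo* replicate 3 the fall at P28 was -2.99 (limma adjusted p = 1.1e-04).

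The alpha and beta subunit genes described here, which encode the core of most GABA-A channels, differed less between groups than Gabrg3 by ratio of means. Gabra2 was highest in P20 WT, at 96.1, 72.8 and 58.8, with 30.0, 46.2 and 27.4 in P20 Smo*, 37.6, 41.6 and 43.3 in P28 WT and 20.9, 22.8 and 3.21 in P28 Smo*. At both ages Smo* lay below WT without overlap, and limma called neither difference (adjusted p = 0.24 and 0.18). Gabra3 spanned 34.3 to 94.8 outside P28 Smo*, where it had 110, 138 and 180, and Gabrb2 spanned 42.9 to 191. Gabra4 and Gabrb1, which share 46 exon bases on opposite strands, were highest in P28 Smo* replicates 1 and 2 (79.3 and 92.9 for Gabra4, 138 and 116 for Gabrb1), with 11.8 and 18.2 in replicate 3. Gabre spanned 23.1 to 60.8. None of these last 5 was called with limma in a comparison of all its libraries.

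The GABA-B receptor needs both of its subunits at the surface of the cell. Gabbr1, which binds GABA, was abundant throughout, at 664 to 1349 over the 12 libraries, and was not called with limma. Gabbr2, which couples to the G protein (chromosome 4, 46662305 to 46991873, minus strand), had 0, 2.08 and 7.71 in P20 WT, 0, 6.97 and 5.48 in P20 Smo*, 22.2, 22.6 and 21.2 in P28 WT and 257, 475 and 21.4 in P28 Smo*. Replicates 1 and 2 of P28 Smo* stood far above every other library, while replicate 3 was at the level of P28 WT. Between the ages in Smo* it rose by 5.23 on the log2 scale (SE 1.15, limma adjusted p = 0.035), called in 2 of 6 fits that each left out 1 library. In pooled reads the ratio was 59.7 (95% exact interval 35.4 to 110). That interval holds counting error alone and leaves out the wide spread between the libraries. Against WT at P28 the difference of 2.61 (SE 0.99) was not called with limma (adjusted p = 0.14) or edgeR. DESeq2 called it, as did the authors' deposited table (authors' adjusted p = 0.0023). Without P28 Smo* replicate 3 the difference was 3.93 (limma adjusted p = 4.2e-04).

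**Figure D3:**
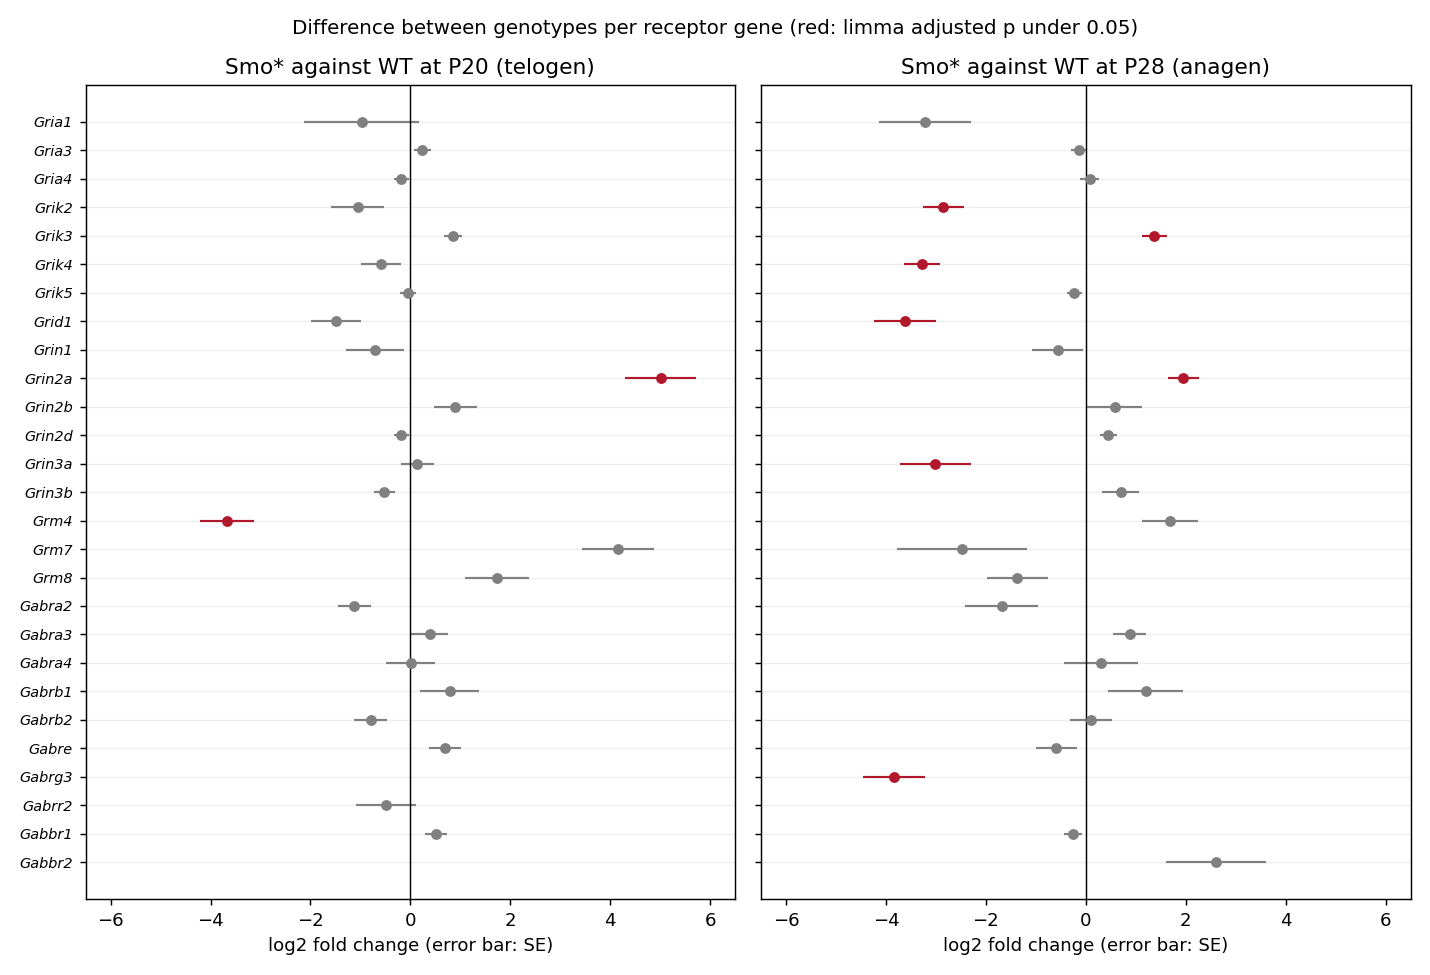
Log2 fold change of Smo* over WT with its SE (limma, 6 libraries per age) for the receptor genes named here that were tested at P20 (left) or P28 (right), with called genes in red. At P20 only Grin2a and Grm4 are called, at 5.01 and -3.67. At P28 Grik3 and Grin2a lie above 0 and Grik2, Grik4, Grid1, Grin3a and Gabrg3 below it.

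P28 Smo* replicate 3 was the lowest of its group for 17 of the 27 genes that reached 50 and the highest for 5. Without it, 11 receptor genes were called at P28 in place of 7, where 11% of all genes were called. The same 5 fell and 6 rose in place of 2, so that the balance turned from more lower to more higher. Those that rose included Gabbr2, Gabrb1 and Grin2b beside Grik3 and Grin2a. Between the ages in Smo*, 8 were called in place of 3 (Gabbr2, Gabra4, Gabrb1, Gabrg3, Gria3, Grik4, Grin2b and Grin3a, all higher at P28), where 7.08% of all genes were called. With each library left out in turn, 4 of the 7 calls at P28 (Gabrg3, Grik2, Grik4 and Grin2a), 9 of the 15 between the ages in WT, 0 of the 2 at P20 and 0 of the 3 between the ages in Smo* were made every time.

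The receptor genes tested whose groups did not overlap were 11 of 27 at P20 (16.4% of all genes tested), 14 of 29 at P28 (33.4%), 22 of 28 between the ages in WT (45.1%) and 11 of 28 between the ages in Smo* (24.4%). These counts hold only genes that passed the filter on low values. For a single gene, the smallest p that an exact permutation test can give with 3 and 3 libraries is 0.1.

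Whether the Smo* difference itself differed between the ages was tested as an interaction, in which 1 receptor gene was higher and 3 were lower of 28 tested, where 4.72% of all genes were called (1.89% higher, 2.83% lower). Grm4 was 14.7-fold lower in Smo* at P20, and its means at P28 were 45.6 in Smo* and 14.0 in WT (interaction log2 5.35, SE 0.79, limma adjusted p = 0.0035). Grik4 and Gabrg3, with a lower level in Smo* at P28, differed from P20 by -2.69 (SE 0.51, limma adjusted p = 0.013) and -4.71 (SE 1.04, limma adjusted p = 0.027). Grm7 differed by -6.63 (SE 1.60, limma adjusted p = 0.038). At P20 the means of Gabrg3 were 1.74 in WT and 5.46 in Smo*, and it was not tested between genotypes there. Gabrg3 passed the filter on low values only through the P28 libraries. Grm7 held 2 reads in all in P20 WT, so the P20 difference of both genes rests on few WT reads. The difference of Grm4 was called in all 12 fits that each left out 1 library, that of Grik4 in 11, of Gabrg3 in 7 and of Grm7 in 4. For Grik2, Grid1 and Grin3a, which fell at P28, the interaction was not called (limma adjusted p = 0.11, 0.20 and 0.059).

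**Figure D4:**
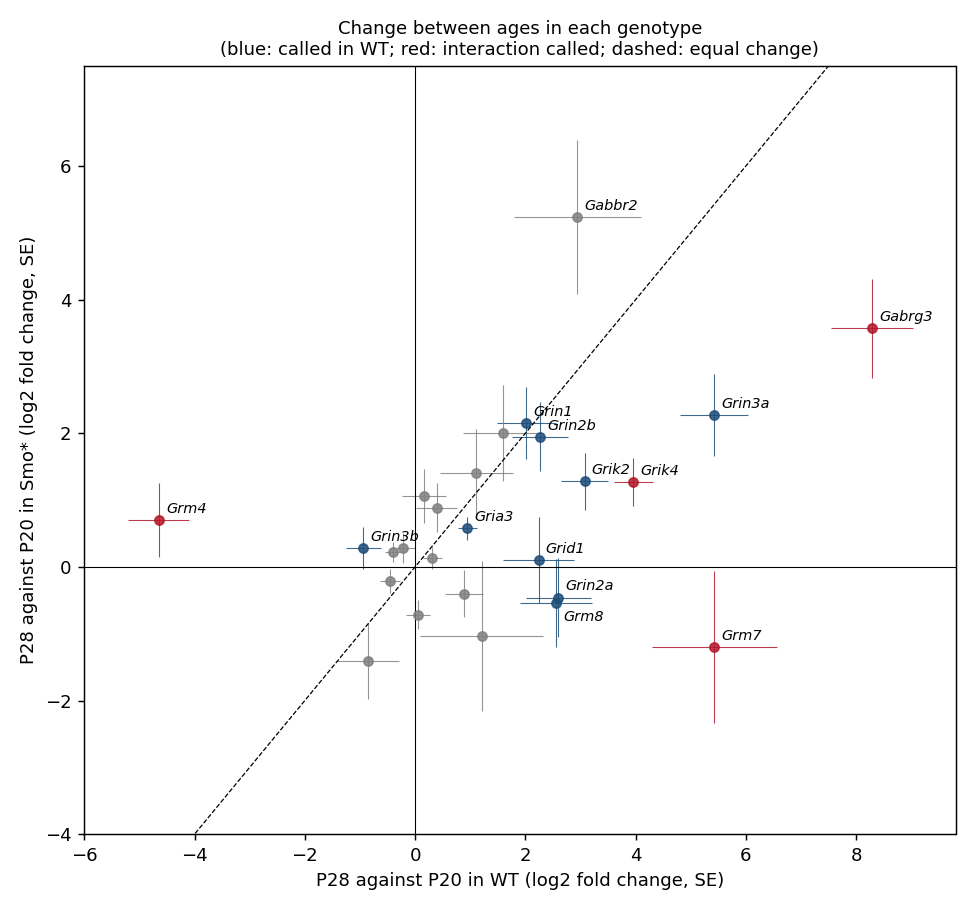
Log2 fold change between P28 and P20 in WT (horizontal) and in Smo* (vertical), with SEs, for the receptor genes named here that were tested (limma, 12 libraries), where the dashed line marks equal change. Gabrg3, Grik4 and Grm7 lie below the line and Grm4 above it, and their interaction is called (red). Gabbr2 is highest on the vertical axis, at 5.23.

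The partners of the receptors were read from 6 lists. Of 13 auxiliary subunit genes tested, which encode proteins that set the gating and traffic of AMPA, GABA-A and GABA-B receptors, 8 rose and 0 fell between the ages in WT (0 were lower at an unadjusted p under 0.05 with limma, edgeR or DESeq2), with a median log2 fold change of 1.29 against -0.01 for all genes. At P28, 6 of 13 fell in Smo* and 0 rose (0 were higher at an unadjusted p under 0.05 with any of these tools), with a median of -1.26. The summed level of the dermal papilla markers was also highest in P28 WT, as given above. Shisa9, an AMPA receptor partner, had 61.0, 37.5 and 60.7 in P20 WT, 1833, 2052 and 2106 in P28 WT and 323, 420 and 42.8 in P28 Smo*. The P28 WT libraries were far above both other groups. It rose by 5.24 on the log2 scale in WT (SE 0.62, limma adjusted p = 1.3e-04) and fell by 3.46 in Smo* at P28 (SE 0.74, limma adjusted p = 0.026). Kctd12, a GABA-B partner, had 5510, 5814 and 6614 in P28 WT and 2904, 2697 and 2064 in P28 Smo* (log2 -1.24, SE 0.15, limma adjusted p = 0.0028). Cacng4, another AMPA receptor partner, had 515, 688 and 493 against 174, 184 and 188 (log2 -1.61, SE 0.18, limma adjusted p = 0.0018). Kctd12b (-0.88), Lhfpl4 (-1.29), which places GABA-A receptors at the synapse, and Cacng7 (-1.26) fell as well.

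Of 11 transporter genes tested at P28, 2 rose in Smo* and 0 fell (0 were lower at an unadjusted p under 0.05 with limma, edgeR or DESeq2). Slc1a1, a glutamate transporter, had 24.7, 43.9 and 55.3 in P28 WT and 668, 604 and 334 in P28 Smo* (log2 3.67, SE 0.38, limma adjusted p = 0.0012). Slc6a13, a GABA transporter, had 11.1, 5.94 and 0.921 against 99.2, 35.1 and 57.8 (log2 3.45, SE 0.80, limma adjusted p = 0.036). Both groups were apart in both genes. Slc6a13 had a mean of 5.98 in P28 WT and 64.0 in P28 Smo*. It passed the filter on low values only through the group where it was high. The counts of the lists at P28 stand beside 8.9% of all genes called (4.05% higher, 4.85% lower). Of 22 scaffold genes 1 rose (Dlgap3, 2.17) and 2 fell (Dlgap1, -3.13, and Grip1, -3.52, which binds AMPA receptors). Of 13 genes of extracellular partners 2 rose (Nptx2, 1.96, a pentraxin that gathers AMPA receptors, and Elfn2, 1.94) and 2 fell (Nlgn2, -0.47, of inhibitory synapses, and Elfn1, -0.79). Of 6 cation-chloride cotransporter genes, which set the chloride gradient that GABA-A channels act on, 1 rose (Slc12a4, 0.66), and of 7 genes of synthesis and breakdown limma, edgeR and DESeq2 called 0 at P28 (3 had an unadjusted p under 0.05 with each). At P20 limma and edgeR called 0 of the 70 genes tested in the 6 lists and DESeq2 called 5, where limma called 0.696% of all genes, edgeR 0.628% and DESeq2 3.28% (11 of the 70 had an unadjusted p under 0.05 with limma). Between the ages in WT, where 25.4% of all genes were called (13.5% higher, 11.9% lower), 7 of 22 scaffold genes rose and 4 fell, and 4 of 12 genes of extracellular partners rose and 3 fell. Of 8 genes of synthesis and breakdown 3 rose and 1 fell, of 11 transporter genes 0 rose (0 at an unadjusted p under 0.05 with limma) and 2 fell, and of 6 cotransporter genes 1 rose and 1 fell.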

How the data were processed

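RNA of sorted dermal papilla cells was sequenced in 12 libraries, 3 in each of 4 groups, after removal of ribosomal RNA and with a kit that marks the strand, per the labels' protocols. Per the submitters' processing notes, the tools were DESeq2, HTSeq, TopHat2 (version 2) and Trimmomatic, and the genome was mm10 or GRCm38.p4, with no roles given. The deposited values are normalized counts (a signal): read counts that the authors divided by 1 size factor per library. Whole reads could be recovered from them, since 100% of the values of each library were whole multiples of a common step (tolerance 0.01 reads). The deposited mean equals that of all 12 libraries, so both tables were normalized together. The deposited tables also hold the authors' log2 fold change of WT over Smo* with its SE on the log2 scale, a test score, a p-value and an adjusted p-value, of which only the last is used, as an alternative.

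Symbols, exon lengths and coordinates came from a GENCODE annotation of GRCm38, which named 98.7% of the identifiers (25562), and 0 columns of sample values were unused. Log2(value + 1) was tested in limma (version 3.58.1, R 4.3.3) with the trend option, for genes with a mean of at least 10, adjusted by Benjamini-Hochberg over all genes at 0.05. Log2 fold changes on this scale understate those of low genes. Folds written without log2 are ratios of the group means of normalized counts, apart from those given in reads. The log2 value beside such a fold is a difference of mean log2 values, so it can be larger or smaller where libraries vary. Each age was fitted by itself for genotype, and all 12 libraries together for age and interaction. The tests were tested on simulated data. Alternatives were TMM scaling, pseudocounts of 0.5 and 5, no filter or a minimum mean of 50, the recovered reads in edgeR 4.0.16 or DESeq2 1.42.0, 1 limma fit of all libraries, the authors' adjusted p-values, and each library left out. Genes named with values per library were those called or with a group mean of at least 50, and, of the partner lists, those called between genotypes. Gria1 was named after its values were seen. The receptor genes and the lists were chosen with earlier results of these data known. Some of the receptor genes are counted in the totals but not reported here by name. Replicate numbers follow accession order only.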

Additional observations from a re-analysis of the deposited data

Results flagged for a closer look

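The difference between Smo* and WT was not the same at both ages for 4 receptor genes by the interaction term of the 12-library limma fit. For Gabrg3, the difference at P28 minus that at P20 was -4.71 on the log2 scale (SE 1.04, limma adjusted p = 0.027), with group means of 1.74 in P20 WT, 5.46 in P20 Smo*, 843 in P28 WT and 75.9 in P28 Smo*. For Grik4 it was -2.69 (SE 0.51, limma adjusted p = 0.013), with means of 26.7, 18.0, 441 and 46.0 in the same order. For Grm4 it was 5.35 (SE 0.79, limma adjusted p = 0.0035), with means of 413, 28.1, 14.0 and 45.6. For Grm7 it was -6.63 (SE 1.60, limma adjusted p = 0.038), with means of 0.642, 24.7, 62.4 and 23.8. Gabrg3 was not tested between genotypes at P20, where both means were under 10, and passed the filter only through P28. Grm7 held 2 reads in all in P20 WT. The P20 difference of both genes thus rests on few WT reads. The value of Grm7 was -4.90 without P28 Smo* replicate 3, which held 0 reads of it (limma adjusted p = 0.0041). That of Gabrg3 was -3.86 without the same library (limma adjusted p = 0.023). Leaving out single libraries kept the direction in each of these genes, and the call in 12 of 12 fits for Grm4, 11 for Grik4, 7 for Gabrg3 and 4 for Grm7.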

How the results depend on the processing

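The log2 fold change of each receptor gene called with limma kept its sign under the alternatives run for it. Receptor genes called in no comparison were mostly not followed through the alternatives, and partner genes only as counts. The balance of calls at P28 turned without P28 Smo* replicate 3, from 2 higher and 5 lower to 6 higher and 5 lower. The median log2 fold change of the receptor genes tested at P20 was -0.04 with limma and 0.03 with edgeR and with DESeq2. With DESeq2 the called receptor genes were 5 at P20, 11 between the ages in Smo* and 8 in the interaction (where it called 10% of all genes), against 2, 3 and 4 with limma. With edgeR they were 5 between the ages in Smo* (4.23% of all genes). With the authors' adjusted p-values they were 4 at P20 and 13 at P28, against 2 and 7. Of the partner genes in the 6 lists, limma called 0 of 70 at P20 (0.696% of all genes) and DESeq2 5 of 70 (3.28%). Limma on all 12 libraries called 2 of 72, for which no share of all genes is given here. The authors' adjusted p-values called 3 of the 87 with a p-value (2.13% of all genes). At P28 limma called 16 of 72 (8.9% of all genes), and the authors' adjusted p-values called 26 of the 87 with a p-value (16.8%). With 1 library left out, the called receptor genes were 0 to 2 at P20, 4 to 11 at P28, 9 to 14 between the ages in WT, 0 to 8 between the ages in Smo* and 1 to 5 in the interaction. The called partner genes were then 0 to 1 at P20 and 5 to 20 at P28. Of these fits, the share of all genes called is given only for those without P28 Smo* replicate 3. It was 11% at P28, 7.08% between the ages in Smo* and 5.04% in the interaction. The other counts have no such share beside them and are not results about the receptor or partner genes. Fits without a library test fewer samples, and the cause of the other differences was not tested. P28 Smo* replicate 3 gave the highest counts at P28 and in Smo* when left out, and P28 WT replicate 3 the lowest in WT and the interaction. No paired analysis was possible because the labels give the groups no shared replicate numbers. Levels near 10 normalized counts rest on few reads per library, which limits what could be detected among the low genes.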
